A study of Mus musculus with 10 samples.

Results

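The Sox, Fox, Gata, Pax, Tbx and Lhx genes encode 6 families of transcription factors best known for their work in the developing embryo, and their RNA levels were read in an embryonic stem cell line. Members were chosen by name alone: protein-coding genes whose symbol in the GENCODE mouse vM21 annotation is the family name followed by a number, or for Fox by a subfamily letter and a number. The rule matched 99 genes. Sox2 and Tbx3, factors of the pluripotent state itself, were left out, which gave 97 members of 21897 protein-coding genes and of 55487 genes in the tables. The rule itself reads no expression value, although it was set with earlier results of these data known. The series maps R-loops, in which RNA pairs with 1 strand of DNA, in E14, a mouse embryonic stem cell line, and lists 10 samples. Results below come from the 3 RNA-seq replicates, and the other 7, which profile R-loops, were not analysed here. Per the labels' protocols, these cells were grown in 15% serum with LIF, 3 µM of a GSK inhibitor and 1 µM of a MEK1/2 inhibitor, with no other treatment. All are of 1 cell line in 1 condition, so there is no group to compare, and the labels do not say whether the replicates came from separate cultures; the spread between them may be technical.

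Each family is defined by the way its proteins hold DNA. Sox proteins bend DNA with an HMG box, Fox proteins use the forkhead (winged helix) domain, Gata proteins use zinc fingers, Pax proteins a paired domain, Tbx proteins the T-box, and Lhx proteins a homeodomain beside LIM domains that bind partner proteins. Many members are master regulators of a germ layer or organ and are kept off in pluripotent cells, where Polycomb proteins commonly mark their promoters. Others, among them several forkhead subfamilies, serve the cell cycle, nutrient signalling or general transcription and are active in many tissues. Cells held with LIF and with GSK and MEK inhibitors are usually classed as naive, the state closest to the inner cell mass.

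Replicates 1, 2 and 3 held 11420425, 6467405 and 5787357 counts, as estimated by the authors' software. On the CPM scale (counts scaled to the library total), 3 counts, used below as the floor, equalled 0.263, 0.464 and 0.518 in that order. Levels of different genes are compared below as TPM, which scales counts by gene length and library. Genes with an effective length under 100 nt held 60.3%, 65.8% and 63.9% of TPM, so TPM of the members is compressed by the same factor within each library. The stem cell identity of the libraries was checked on 10 marker genes, all of them expressed by the limit used below. Their summed TPM was 1629, 1445 and 1142, with Nanog at 183 ± 30.0 TPM and Pou5f1 at 149 ± 21.7 TPM (SD, n = 3). Sox2 and Tbx3, the family genes left out of the rule, had 32.9 ± 7.08 and 16.1 ± 3.40 TPM (SD, n = 3), each above every member.

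Few of the 97 genes were expressed, and 12 of the 17 that were belonged to Fox, the largest of the 6 families. A mean TPM of at least 1, called expressed below, was reached by 17 members (17.5%), against 44.2% of all protein-coding genes. A further 38 members (39.2%) had more than 3 counts in at least 1 replicate but a mean TPM under 1, against 19.3% of protein-coding genes. The remaining 42 (43.3%) were at or under the floor of 3 counts in every replicate, against 36.5%, and 20 of them had no counts at all, 20.6% of members against 26.1% of protein-coding genes. The median log2(TPM + 1) was 0.066 ± 0.035 over the members and 0.54 ± 0.11 over protein-coding genes (SD, n = 3). The expressed 17 carried 90.1% of the members' summed TPM. By family, 12 of 44 Fox genes, 4 of 18 Sox genes and 1 of 6 Gata genes were expressed, and 0 of 9 Pax, 0 of 12 Tbx and 0 of 8 Lhx genes. With the same limits, 14 of 17 Klf genes and 2 of 39 Hox genes were expressed. No difference between families was tested, since genes are not replicates. The number expressed depended on the unit. It was 31 with CPM of at least 1, which favours long transcripts (55.4% of protein-coding genes). TPM over protein-coding genes alone, a setting added after seeing the data, also gave 31 (55.8%). The number was 25 with FPKM of at least 1 (51.9%) and with TPM without genes of effective length under 100 nt (51.6%). When every replicate had to reach a TPM of 1, it was 11 (40.8% of protein-coding genes).

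**Figure D1:**
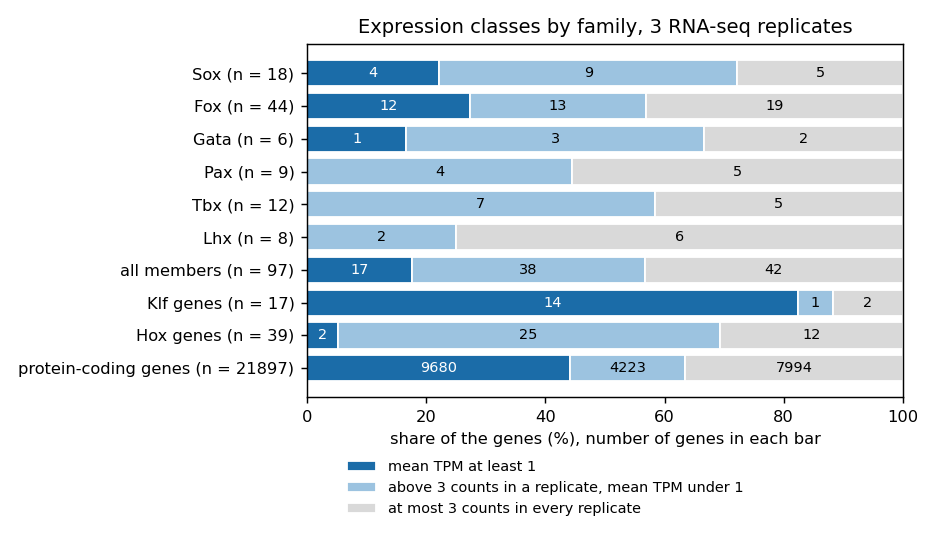
Horizontal stacked bars give the percentage of genes in 3 expression classes for each of the 6 families, all 97 members, and Klf, Hox and all protein-coding genes, with the number of genes printed in each segment. The dark segment is 17 of 97 members and 9680 of 21897 protein-coding genes, and it is missing from the Pax, Tbx and Lhx bars.

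Forkhead genes held the 9 highest levels. Foxm1 (ENSMUSG00000001517, GRCm38 chromosome 6, 128362967 to 128376146, plus strand), a driver of mitotic gene expression in dividing cells, had 17.0, 13.1 and 5.01 TPM in replicates 1, 2 and 3. That is a mean of 11.7 ± 6.11 TPM (SD, n = 3), the highest of the members, and 72.8% of expressed protein-coding genes were lower. Its level in replicate 3 lay well under the others, and there Foxn2, Foxj3 and Foxk2 were above it. The ratio of Foxm1 to Foxn2 TPM was 1.51, 1.53 and 0.747, so the order of the leading pair was not the same in every library.

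Next came 3 forkheads found in many tissues. Foxn2 (ENSMUSG00000034998, chromosome 17, 88440711 to 88490533, plus strand) had 11.2, 8.59 and 6.71 TPM, a mean of 8.84 ± 2.27. Foxj3 (ENSMUSG00000032998, chromosome 4, 119537004 to 119629119, plus strand) had 10.6, 8.07 and 6.27 TPM, a mean of 8.30 ± 2.16. Foxk2 (ENSMUSG00000039275, chromosome 11, 121259990 to 121309896, plus strand), whose family takes part in metabolic regulation, had 10.7, 8.23 and 5.76 TPM, a mean of 8.23 ± 2.47 (SD, n = 3 for each). The ranges of these 3 genes overlapped over most of their length, and Foxj3 was above Foxk2 in 1 of 3 replicates. Beside them, the close relatives Foxn3, Foxj2 and Foxk1 were lower in every replicate. Foxk2 exceeded Foxk1 by 9.81, 11.1 and 15.2 times, Foxj3 exceeded Foxj2 by 5.13, 6.11 and 14.6 times, and Foxn2 exceeded Foxn3 by 2.19, 2.54 and 2.10 times. A ratio within a library does not depend on its total, but it does depend on the effective lengths the authors' software estimated.

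Foxo factors, which insulin and growth factor signalling keep out of the nucleus through AKT, were present as 3 expressed genes of 4. Foxo3 (ENSMUSG00000048756, chromosome 10, 42181841 to 42276755, minus strand) had 8.26, 5.65 and 3.68 TPM, and Foxo4 (ENSMUSG00000042903, chromosome X, 101254528 to 101260873, plus strand) 5.10, 4.23 and 3.45 TPM. The ratio of Foxo3 to Foxo4 was 1.62, 1.34 and 1.07. Foxo1 (ENSMUSG00000044167, chromosome 3, 52268336 to 52353221, plus strand) had 1.82, 1.29 and 0.48 TPM, and Foxo3 exceeded it by 4.54, 4.38 and 7.67 times. Foxo6, a family member best known from brain, had 0.89, 0.66 and 0.53 TPM. Foxo3 was thus above Foxo4, Foxo1 and Foxo6 in each library, with the smallest margin over Foxo4.

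Foxh1 (ENSMUSG00000033837, chromosome 15, 76668225 to 76669948, minus strand) is the forkhead partner of SMAD proteins in Nodal and activin signalling. It had 6.61, 5.62 and 4.16 TPM, a mean of 5.46 ± 1.23 (SD, n = 3), and 220, 130 and 89 counts. The SMAD genes that such a partner needs were expressed too: Smad2 had 8.64 ± 1.88, Smad4 8.47 ± 2.34 and Smad3 2.07 ± 0.843 TPM (SD, n = 3). Foxp4 and Foxp1, forkheads that can pair with each other, had 6.52, 5.09 and 2.66 TPM and 2.94, 2.82 and 1.95 TPM. Their relatives Foxp2, studied in speech and brain circuits, and Foxp3, the factor of regulatory T cells, were at the floor with 2 counts each over all libraries. Foxn3, a checkpoint-associated forkhead, had 5.13, 3.38 and 3.20 TPM. Foxj2 had 2.06, 1.32 and 0.43 TPM. Without replicate 1, the means of Foxj2 and Foxo1 were 0.875 and 0.885 TPM, so both owe their place above a TPM of 1 to that library.

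**Figure D2:**
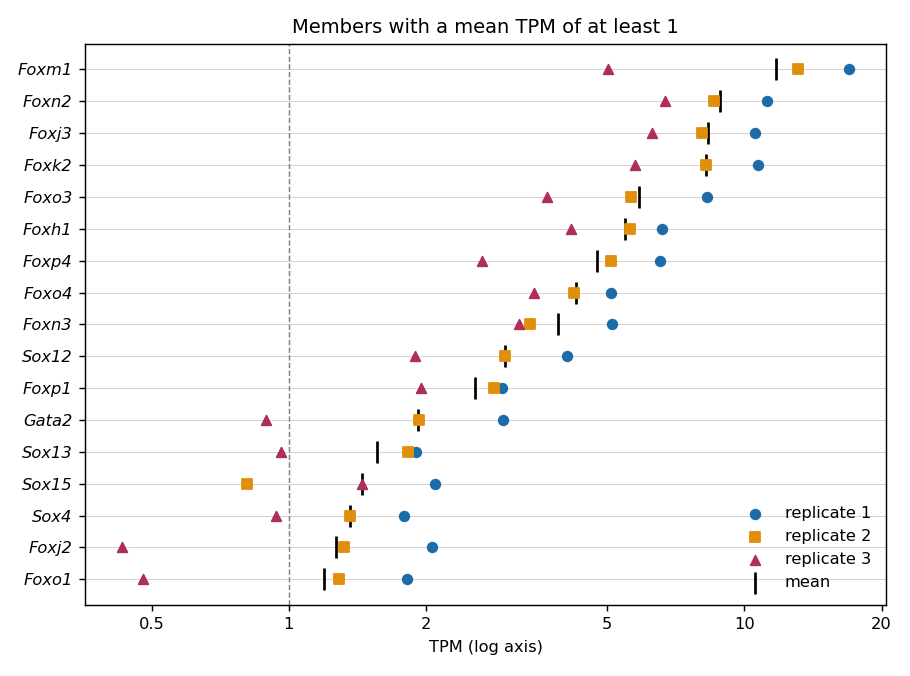
Each row is 1 of the 17 members with a mean TPM of at least 1, ordered by mean; the horizontal log axis is TPM, symbols are the 3 replicates, the black tick is the mean and the dashed line marks a TPM of 1. Replicate 1 is the highest point in all 17 rows and replicate 3 the lowest in 16, Sox15 being the exception.

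Sox genes were led by Sox12 (ENSMUSG00000051817, chromosome 2, 152393611 to 152398063, minus strand), with 4.09, 2.98 and 1.89 TPM. It belongs to the SoxC group, whose members act in progenitors and differentiating neurons. Sox4 of the same group (ENSMUSG00000076431, chromosome 13, 28948919 to 28953713, minus strand) had 1.79, 1.36 and 0.94 TPM, and Sox12 exceeded it by 2.28, 2.19 and 2.01 times. Sox11, the third SoxC gene, had 21, 17 and 9 counts, and Sox12 exceeded it by 45.4, 27.1 and 31.5 times in TPM. The 3 SoxC genes were in the same order in each library.

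Sox13, of the SoxD group, had 1.90, 1.83 and 0.96 TPM, while its group relatives Sox5 and Sox6, needed for cartilage, had 5, 3 and 1 and 15, 5 and 5 counts. Sox6 lies 600 bp from 1110004F10Rik, a gene on the other strand with 21.7 ± 4.1 TPM (SD, n = 3). Sox15 (ENSMUSG00000041287, chromosome 11, 69655314 to 69656727, plus strand), a SoxG gene that in stem cells can bind with Oct4, had 2.09, 0.81 and 1.45 TPM from 41, 11 and 20 counts. It was the expressed member with the fewest counts, and replicate 2 was its lowest library. The opposite-strand gene Mpdu1, at 30.6 ± 5.18 TPM (SD, n = 3), overlaps Sox15 by 31 bp, and the strand setting of the counting is not stated, so Sox15 is uncertain to that extent. Sox2 exceeded Sox15 by 19.3, 39.5 and 18.2 times.

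Sox1, a SoxB1 relative of Sox2 and an early marker of neural ectoderm, lay just under the limit with 0.96, 0.75 and 0.49 TPM and 122, 67 and 44 counts. Sox2 exceeded it by 42.1, 42.7 and 53.8 times. Sox3, the remaining SoxB1 gene, had 1, 1 and 2 counts. Groups that specify later lineages were near the floor: SoxE genes (Sox8, Sox9 and Sox10, of cartilage, gonad and neural crest) summed to 8, 3 and 2 counts, and SoxF genes (Sox7, Sox17 and Sox18, of endoderm and blood vessels) to 10, 6 and 1 counts. Most of these came from Sox8 (7, 1 and 2 counts), Sox17 (5, 2 and 1) and Sox18 (5, 2 and 0). The opposite-strand gene 2810468N07Rik, with 17, 2 and 8 counts, overlaps Sox8 by 329 bp. With the strand setting not stated, the counts of Sox8 are uncertain to that extent. Sox14 had no counts, its SoxB2 partner Sox21 had 33, 15 and 12, and the testis gene Sox30 had 0, 4 and 0.

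Gata2 (ENSMUSG00000015053, chromosome 6, 88193891 to 88207032, plus strand), a factor of blood stem cells and trophoblast, was the expressed Gata gene. It had 2.95, 1.93 and 0.89 TPM from 130, 53 and 34 counts, a mean of 1.92 ± 1.03 (SD, n = 3). Gata4, a factor of primitive endoderm and heart, followed with 0.60, 0.51 and 0.24 TPM from 47, 19 and 12 counts. Gata2 exceeded Gata4 by 4.92, 3.78 and 3.71 times. Gata6, which shares the primitive endoderm role of Gata4, had 3, 5 and 1 counts, and the red cell factor Gata1 6, 5 and 3. Gata3, of trophoblast and T cells, had 3, 0 and 2 counts and Gata5 1, 0 and 0. Of 4 listed Gata partners, Zfpm1 (FOG1) was expressed at 1.89 ± 1.13 TPM (SD, n = 3), Tal1 and Lyl1 were at the floor, and Zfpm2 had no counts. Over protein-coding genes the expressed share was 44.2%.

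Pax genes were low as a family, with a summed TPM of 0.43, 0.44 and 0.29 over 9 genes. Pax5, the B cell identity factor, was the highest with 11, 16 and 9 counts, and it was the Pax gene above 3 counts in every replicate. Pax6, of eye and forebrain, had 3, 4 and 1 counts, Pax8, of thyroid and kidney, 4, 3 and 2, and Pax2, of kidney, 4, 0 and 0. Pax3 had 2, 1 and 0, Pax9 3, 1 and 1 and Pax1 1, 0 and 1, while Pax4 and Pax7, of endocrine pancreas and muscle, had none. Of 10 genes listed for the Pax network 4 were expressed, a share near the 44.2% of protein-coding genes. The adaptor Paxip1 had 14.5 ± 5.26 TPM and the phosphatase Eya3 11.2 ± 3.55 TPM (SD, n = 3), whereas Six2 had no counts and Eya4 and Dach1 had 2 each over all libraries.

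Tbx18 (ENSMUSG00000032419, chromosome 9, 87702800 to 87731260, minus strand), known from heart and ureter, was the highest T-box member with 0.53, 0.44 and 0.35 TPM and 65, 38 and 30 counts. Tbx3 exceeded it by 37.0, 36.1 and 36.6 times, the steadiest of the 15 ratios computed. Tbx20, a heart gene, had 41, 16 and 16 counts, Tbx15 15, 6 and 4, and Tbx6, of paraxial mesoderm, 5, 5 and 7. Tbx6 lies 305 bp from Ppp4c, a gene on the other strand with 43.3 ± 5.15 TPM (SD, n = 3). Tbx21, of T helper cells, had 5, 3 and 2 counts, Tbx4 6, 1 and 0 and Tbx2 6, 0 and 0. Tbx1 and Tbx5, of the pharynx and heart, had 3 and 1 counts over all libraries, and Tbx10, Tbx19 and Tbx22 had none. Outside the name rule, the T-box gene Mga, a partner of MAX, had 39.0 ± 11.9 TPM (SD, n = 3). Eomes had 78, 62 and 52 counts, a mean of 0.953 TPM, whereas T (Brachyury) had 2, 2 and 0 counts and Tbr1 1, 1 and 0.

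Lhx genes were the lowest family, with 6 of 8 at the floor and 23, 18 and 3 counts in all. Lhx2, of forebrain and hair follicle, had 12, 9 and 1 counts, and Lhx6, of cortical interneurons, 7, 8 and 2. The TPM of Lhx2 was nearly level at 0.24, 0.18 and 0.22 although its count in replicate 3 was 1, because its estimated effective length there was 242 nt against 1816 and 2693 nt. The TPM of members with few counts should be read with that in view. Lhx5 had 3 counts over all libraries, Lhx3 and Lhx9 had 1 each, and Lhx1, Lhx4 and Lhx8 had none. Of 9 listed LIM cofactors 5 were expressed (44.2% of protein-coding genes were). Ldb1 had 13.1 ± 2.64, Ssbp4 25.5 ± 4.42 and Ssbp3 7.12 ± 2.17 TPM (SD, n = 3), Lmo4 and Ssbp2 were near the limit, and Ldb2 and Lmo3 had no counts.

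Of the 38 members between floor and threshold, 17 had more than 3 counts in each replicate and 11 had at least 10. Those 11 were Sox1, Sox21, Foxd3, Foxk1, Foxn4, Foxo6, Foxr1, Foxr2, Gata4, Tbx18 and Tbx20. Foxr1, a forkhead described mainly in germ cells and early embryos, was nearest the threshold with 0.68, 0.80 and 0.97 TPM from 18, 11 and 15 counts. Next came Foxk1 at 0.737 ± 0.355 and Sox1 at 0.733 ± 0.235 TPM (SD, n = 3). On the other side lay Sox4 at 1.36 ± 0.425, Foxj2 at 1.27 ± 0.816 and Foxo1 at 1.20 ± 0.675 TPM (SD, n = 3). The SDs of these last 3 genes were larger than their distance from the limit, and Foxk1 was above it in replicate 1 (1.09 TPM). Foxd3, a forkhead known for maintaining pluripotent cells and for neural crest, had 0.30, 0.39 and 0.43 TPM from 18, 16 and 18 counts, under 1 in every replicate. Foxr1, Foxr2, Foxd3, Pax5 and Tbx6 were the low members with their lowest TPM in replicate 1 alone, where every expressed member had its highest. Of expressed protein-coding genes 86.5% were also highest there. These low members rest on few counts, such as 5, 5 and 7 for Tbx6.

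At the bottom, 20 members had no counts: Sox14, Foxa2, Foxb1, Foxb2, Foxd2, Foxd4, Foxe3, Foxf1, Foxi1, Foxi2, Foxl1, Foxs1, Pax4, Pax7, Tbx10, Tbx19, Tbx22, Lhx1, Lhx4 and Lhx8. Over the 97 members, the floor of 3 counts had a median of 0.0471, 0.0618 and 0.0635 TPM in replicates 1, 2 and 3. It lay between 0.013 and 0.652 TPM, the highest being that of Lhx2 in replicate 3, with an estimated effective length of 242 nt. The floor is a chosen limit, and members at or under it could still have counts, as Foxl2 did with 1, 3 and 2. Levels under it rest on too few counts to be ranked at this depth. Among forkheads, 12 of 19 subfamilies had no expressed member, and in 7 (Foxb, Foxe, Foxf, Foxi, Foxl, Foxq and Foxs) every gene was at the floor. Foxa genes, pioneer factors of endoderm, had 16, 5 and 2 counts for Foxa1 and 16, 9 and 7 for Foxa3. Foxa3 lies 838 bp from Sympk, a gene on the other strand with 12.8 ± 4.06 TPM (SD, n = 3). Other low forkheads with few counts included Foxn4 with 29, 18 and 10, Foxr2 22, 18 and 20, Foxd1 11, 2 and 0, Foxc1 8, 3 and 3, and Foxj1 6, 2 and 1. Foxc2, of mesenchyme and lymphatics, had 13, 3 and 1 counts, and it lies wholly within Gm20388, a longer gene on the same strand with 569, 332 and 51.9 estimated counts, so reads of the pair cannot be told apart with certainty.

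**Figure D3:**
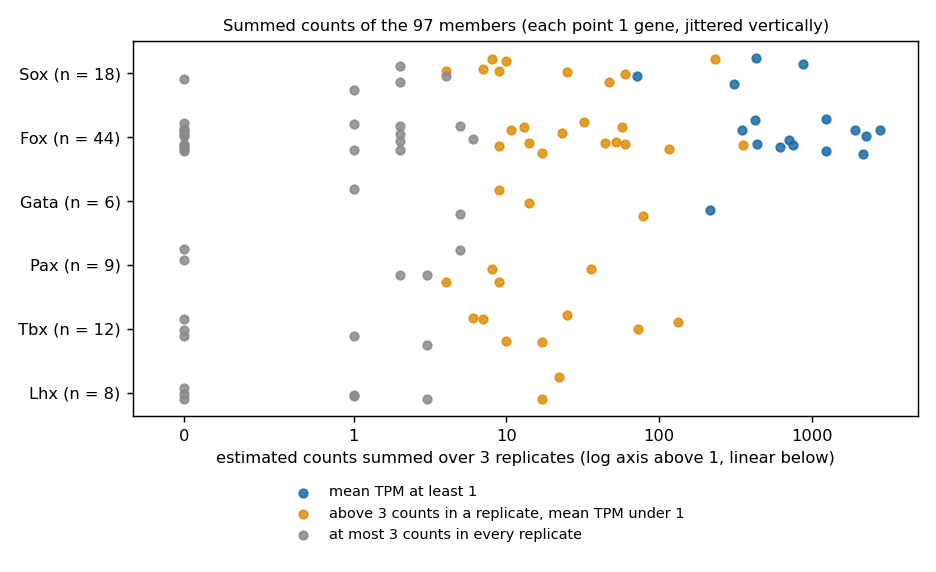
Each point is 1 of the 97 members, placed by its estimated counts summed over the 3 replicates (log axis above 1, linear below) and by family, with vertical jitter; colours are the 3 expression classes. Fox genes span from 0 to 2807 counts (Foxn2), whereas Lhx genes stay at or under 22 (Lhx2).

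Several members double as markers of cells that stem cell cultures can form, and they were read beside independent markers of those cells. In bulk RNA, fewer cells of a type and less RNA per cell cannot be told apart. The numbers of expressed markers below stand beside 44.2% of all protein-coding genes expressed by the same limit. For primitive endoderm, Gata4, Gata6, Sox17, Sox7 and Foxa2 had 78, 9, 8, 2 and 0 counts over all libraries. Of 12 other primitive endoderm markers 2 were expressed, Sparc at 33.4 ± 9.96 and Lama1 at 4.53 ± 1.73 TPM (SD, n = 3). Col4a1 was just under the limit with 128, 67 and 36 counts, while the yolk sac genes Ttr and Afp had 0 and 1 counts. The list's summed TPM was 53.3, 37.1 and 29.8. For trophoblast, Gata2 was expressed, with 217 counts over all libraries, and Gata3 had 5. Of 11 other trophoblast markers Tfap2c and Krt8 were expressed and Eomes was just under the limit with 78, 62 and 52 counts, while Cdx2 had 1 count in all and Plac1 and Prl3d1 none; the list had a summed TPM of 8.31, 6.43 and 6.47. None of 10 mesoderm markers was expressed, and their summed TPM was between 0.64 and 1.13. Beside Sox1, 3 of 10 neural markers were expressed (Tubb3, Nes and Otx2), whereas Olig2 had no counts and Neurog2 and Pou3f2 had 1 each, with a summed TPM between 12.7 and 19.6. Of 10 feeder fibroblast markers Thy1 was expressed, and Pdgfrb was just under the limit with 203, 96 and 55 counts. Fbn1 had 110, 63 and 24 counts, while Col3a1, Dcn, Lum and Postn had none. The summed TPM of the list was between 2.08 and 5.01. Of 6 markers of 2-cell-like cells none was expressed, and their summed TPM was between 0.53 and 1.14. The part of such cells in the levels of the members was not tested.

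Expressed members were longer than floor members, as expressed genes are in general. The expressed members had a median genomic span of 42.1 kb and the floor members 7.04 kb, against 24.3 kb for expressed and 8.75 kb for floor-level protein-coding genes. Genes with no annotated transcript of more than 1 exon numbered 1 of 17 expressed members (Sox4) and 10 of 42 at the floor, where the shares over protein-coding genes were 2.12% and 11.5%. By position, 26 members lay in 12 groups of neighbours within 1 Mb of each other, of which 2 were expressed, 8 low and 16 at the floor, where all 97 members divide into 17, 38 and 42. On chromosome 8, Foxf1, Foxc2 and Foxl1 lie within 46.3 kb (121084386 to 121130644) with 0, 17 and 0 counts over all libraries. All 3 lie wholly within Gm20388 on the same strand, so their counts, zeros included, are uncertain. On chromosome 13, Foxq1, Foxf2 and Foxc1 (31556134 to 31812476) had 5, 1 and 14. The 2 expressed genes were Sox12, within 1 Mb of Foxs1, which had no counts, and Foxj3, within 1 Mb of Foxo6.

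Promoter sequences are shown for 5 members at different levels, with the CG dinucleotides in capitals, because CG-rich start regions are the usual setting of both housekeeping promoters and Polycomb-silenced developmental promoters. Each is the 250 bases before the RefSeq start on GRCm38.p6, written 5′ to 3′ on the strand of the gene: Foxk2 at chr11:121259737-121259986 (plus strand), Gata2 at chr6:88193641-88193890 (plus), Foxd3 at chr4:99656049-99656298 (plus), Lhx1 at chr11:84525535-84525784 (minus) and Foxa2 at chr2:148046970-148047219 (minus).
Foxk2: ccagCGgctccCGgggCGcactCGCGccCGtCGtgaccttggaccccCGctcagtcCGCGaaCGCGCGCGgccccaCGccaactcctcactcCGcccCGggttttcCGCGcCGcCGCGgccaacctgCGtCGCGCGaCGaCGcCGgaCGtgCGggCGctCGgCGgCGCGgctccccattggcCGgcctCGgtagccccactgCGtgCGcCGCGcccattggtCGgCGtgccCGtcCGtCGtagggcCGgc
Gata2: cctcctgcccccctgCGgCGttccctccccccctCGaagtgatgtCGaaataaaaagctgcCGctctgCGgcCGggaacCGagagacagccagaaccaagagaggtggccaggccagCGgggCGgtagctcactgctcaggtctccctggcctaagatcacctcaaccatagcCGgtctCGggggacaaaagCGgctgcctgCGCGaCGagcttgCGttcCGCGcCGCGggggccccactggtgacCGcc
Foxd3: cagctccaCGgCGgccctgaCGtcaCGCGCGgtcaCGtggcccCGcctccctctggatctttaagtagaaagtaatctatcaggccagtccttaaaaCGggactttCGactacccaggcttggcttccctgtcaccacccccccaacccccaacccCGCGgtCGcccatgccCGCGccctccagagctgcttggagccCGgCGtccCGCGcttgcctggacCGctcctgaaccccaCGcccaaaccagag
Lhx1: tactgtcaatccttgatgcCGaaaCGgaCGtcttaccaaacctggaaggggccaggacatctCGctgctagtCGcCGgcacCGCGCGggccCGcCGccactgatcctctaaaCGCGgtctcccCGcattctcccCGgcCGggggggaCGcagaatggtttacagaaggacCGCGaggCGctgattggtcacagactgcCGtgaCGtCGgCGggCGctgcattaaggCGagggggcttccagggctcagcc
Foxa2: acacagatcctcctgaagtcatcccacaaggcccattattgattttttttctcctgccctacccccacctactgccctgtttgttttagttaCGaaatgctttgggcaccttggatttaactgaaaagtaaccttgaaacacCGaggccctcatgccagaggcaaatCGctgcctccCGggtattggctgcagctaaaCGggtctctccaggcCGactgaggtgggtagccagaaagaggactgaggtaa
The expressed Foxk2 had 48 CG dinucleotides in its window, an observed-to-expected ratio of 1.28. That was the highest number among the 67 members with a matched sequence, so Foxk2 does not stand for the expressed members. Gata2, at a mean TPM of 1.92, had 22 (ratio 0.785) and the low Foxd3 had 21 (ratio 0.854). Lhx1 and Foxa2 both had no counts, yet the Lhx1 window held 26 (ratio 0.991) and that of Foxa2 held 6 (ratio 0.376). A promoter sequence was matched for 67 of 97 members (69.1%). With the others unknown, the classes were not compared, and these sequences describe single genes.

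The expressed members were next compared between replicates. In TPM, all 17 expressed members were highest in replicate 1, where 86.5% of expressed protein-coding genes were, and 16 of 17 were lowest in replicate 3, against 79.4%. In CPM, 14 were highest in replicate 1 (46.5% of expressed protein-coding genes) and 16 lowest in replicate 3 (61.5%). After TMM scaling, which sets the bulk of genes level between libraries, 15 of 17 were lowest in replicate 3, against 40.5% of 9622 expressed protein-coding genes tested. Their median log2 deviation from the gene's mean was 0.16, 0.084 and -0.25 in replicates 1, 2 and 3, where the medians over expressed protein-coding genes were -0.0021, 0.010 and 0.0066. The expressed members had a median length of 3083 nt, against 2191 nt for expressed protein-coding genes. After a smooth correction for length in each library, 13 of 17 were still lowest in replicate 3 (38% of expressed protein-coding genes) and their median deviation there was -0.19. In replicate 3, Sox4, Sox13, Gata2, Foxj2 and Foxo1 had 0.94, 0.96, 0.89, 0.43 and 0.48 TPM, all under 1. They entered these counts through the libraries where they were higher, and each of them is counted among the genes lowest in replicate 3. Among the 12 members with a TPM of at least 1 in replicate 3 itself, a choice made after seeing the data, 10 were lowest there after TMM scaling (38.1% of protein-coding genes chosen likewise) and 8 after the length correction (35.8%).

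**Figure D4:**
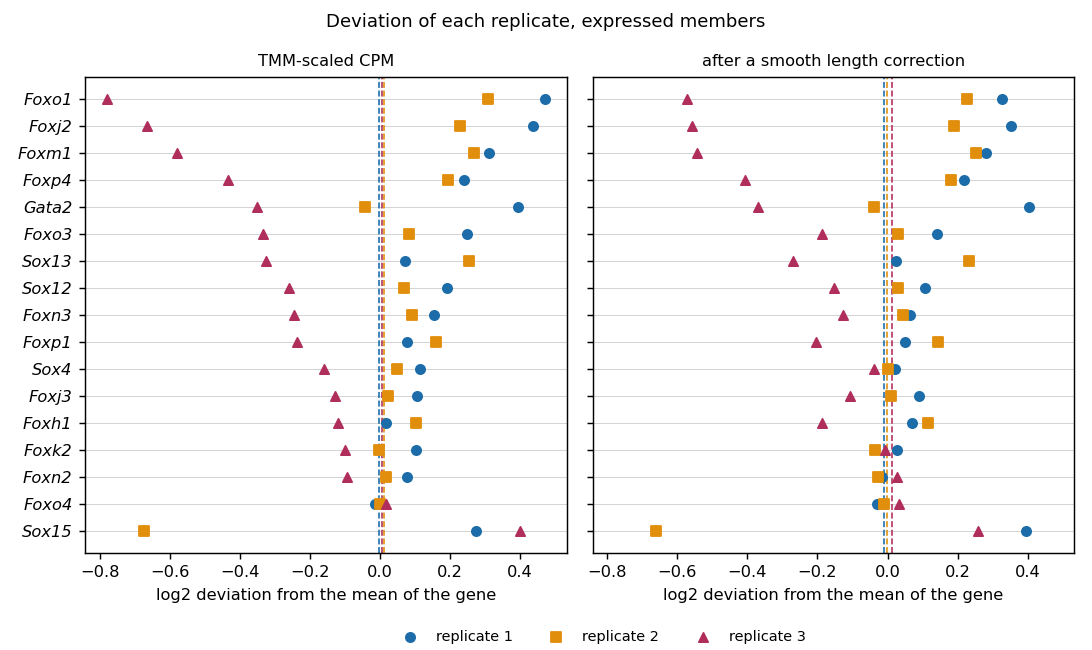
Points are log2 deviations of each replicate from the mean of the gene for the 17 expressed members, on TMM-scaled CPM (left) and after a smooth length correction (right); dashed lines are the medians over expressed protein-coding genes. Replicate 3 lies at -0.78 for Foxo1 and -0.58 for Foxm1 on the left, and at -0.57 and -0.54 on the right.

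Single genes were then tested for variation between replicates beyond that of genes of similar abundance, with edgeR's goodness-of-fit test adjusted over all 12577 genes that passed the filter. Of the 97 members 29 passed it, and 0 were called at an adjusted p under 0.05, against 1.84% of all genes tested. At an unadjusted p under 0.05 there were 3, against 6.96%. They were Foxo1 (edgeR p 0.00145, adjusted p 0.0679), Foxm1 (p 0.0111, adjusted p 0.3) and Foxj2 (p 0.0207, adjusted p 0.445). Foxo1 had 35.3, 31.5 and 14.7 TMM-scaled CPM and Foxm1 89.9, 87.4 and 48.4, in each case with replicate 3 apart from the others. In contrast, Foxo4 had 2226, 2152 and 2141 nt of effective length and 25.8, 26.1 and 26.4 TMM-scaled CPM, the most even of the expressed members on that scale. The test could miss modest differences, so no call does not show that the members were steady.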

How the data were processed

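Per the labels' protocols, ribosomal RNA was removed from DNase-digested total RNA before preparation with a strand-preserving kit. The submitters' processing notes list STAR, RSEM, Bowtie2, SAMtools and deepTools and the build mm10 (GRCm38), without roles; versions, annotation release and strand setting are not given in the sources used here. Per the file headers, the authors deposited estimated counts (expected counts, not normalized), TPM and FPKM for each gene. Symbols, types and coordinates came from GENCODE vM21 (GRCm38) by Ensembl ID: 55141 of 55487 IDs matched, and the 346 others held 0.032% of counts.

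The members and gene lists were chosen with earlier results of these data known. By the naming rule, expressed members are given per replicate, low members by counts, floor members by family, and the 3 members on either side of the limit are given; listed markers and cofactors, Sox2, Tbx3 and genes near or overlapping a member may be named. Expressed means a deposited TPM averaging at least 1; the floor is at most 3 estimated counts in every library. Values are mean ± SD over 3 replicates. Medians used log2(TPM + 1). Counts were rounded for edgeR 4.0.16 in R 4.3.3 (filterByExpr, TMM, estimateDisp with an intercept, deviance under the trended dispersion against chi-square, Benjamini-Hochberg), which was tested on simulated data. The length correction was a lowess curve per library. Alternatives included DESeq2 1.42.0 size factors. Other steps used pandas 2.3.3 and numpy 2.4.6 under Python 3.11.15. The floor is a chosen limit with no error model behind it. Reads copied by PCR are not separate molecules, and the floor makes no allowance for them. Promoters came from RefSeq (GRCm38.p6), taking the start nearest the GENCODE gene start. The values of some single genes are not reported here.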

Additional observations from a re-analysis of the deposited data

How the results depend on the processing

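The 23 results (4 summaries, 2 shares of members lowest in replicate 3 and the mean TPM of 17 members) were recomputed under 101 alternatives, 97 planned and 4 that were added once the data had been seen. Of the alternatives, 75 stayed within the allowed spread and 26 moved, and the scheme had no label for a reversal. For the member means and the median level, leaving out a single replicate cannot shift the mean as far as the SD allowed. Those alternatives were therefore bound to stay. The 17 expressed members became 6 with a mean TPM of at least 5 (24.2% of protein-coding genes), 31 with CPM, 11 with TPM of at least 1 in every replicate and 31 with TPM taken over protein-coding genes alone (55.8%), the last chosen after seeing the data; without single replicates the number was 15 to 17. The 0 of 12 Tbx genes became 2 with CPM or the protein-coding denominator and 1 with FPKM or without short genes; CPM also brought in 1 Pax gene and the protein-coding denominator 1 Lhx gene. The 42 floor members (36.5% of protein-coding genes) became 20 with 0 counts required (26.1%) and 60 with at most 10 counts in every replicate (43.3%). Without single replicates there were 42 to 56 (36.9% to 39.4%), a number that cannot fall when fewer libraries have to pass. The median log2 level of 0.066 became -2.78 with a pseudocount of 0.1, 0.318 over members above the floor, 0.17 without genes of effective length under 100 nt and 0.295 over protein-coding genes alone, and was 0.0495 to 0.084 without single replicates; over protein-coding genes it was -0.864, 1.98, 1.18 and 1.72 in the first 4 of these. Leaving short genes out raised all other genes by 1.33, 1.55 and 1.47 (log2) in replicates 1, 2 and 3, and so moved the mean of each of the 17 members. The variability test called 0 members under every alternative, and the smallest adjusted p (edgeR) among members ran from 0.0679 to 0.999. Depth limits the low end: the order of members at or under 3 counts has no meaning.

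No paired analysis was possible because the 3 libraries form a single group; their replicate numbers have no counterpart among the tables used.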
